A study of Mus musculus with 20 samples.

Results

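The genes described here are 35 genes of mitosis, chosen by symbol as genes whose products run the entry into mitosis, the segregation of chromosomes and cytokinesis. Each symbol had 1 row among the 19807 genes listed for mouse dermis and epidermis, so all 35 were found. RNA was sequenced from skin of 3 kinds, each separated with EDTA into dermis and epidermis. Shh wounds were small wounds of 4-5 week old K14-CreER; LSL-Shh mice, in which tamoxifen lets Cre release a Shh transgene in cells that use the K14 promoter, which is that of basal keratinocytes. Embryonic skin was taken from wild-type embryos at the stage labelled E14.5, counted in days of gestation. WT wounds were small wounds of 4-5 week old littermates labelled wild type, which per the methods received tamoxifen too, and whose alleles beyond that word the sources used here do not give. Wound tissue was taken 2 days after the scab came off, and all mice were of mixed strain. There were 3 Shh, 4 E14.5 and 3 WT libraries of each tissue. The wound libraries differed from the embryonic ones in age, in injury and in sequencing depth at once. These cannot be told apart, and no unwounded adult skin was analysed here. The paper names tamoxifen for the wounded mice and not for embryos. Whether a library pools wounds or animals was not clear from the labels, so p-values measure only the spread between these libraries.

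Entry into mitosis is driven by CDK1 bound to A- and B-type cyclins. Aurora and Polo-like kinases build the spindle, the kinetochore holds each chromosome to its microtubules, and the spindle checkpoint restrains the anaphase-promoting complex until every chromosome is attached. Most of these genes are transcribed only in cells in late S phase, G2 and M, through promoters bound by the DREAM and MuvB complexes, B-Myb and FOXM1, and their RNA is commonly read as a mark of dividing cells. In skin the dividing cells include basal keratinocytes and cells of the dermis, among them mesenchymal cells in the embryo. In bulk tissue, more cells that express a gene and more of its RNA per cell cannot be told apart.

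The promoters of the genes share sequence, which was read from RefSeq (GRCm38.p6) for a window of 250 bases before to 50 bases after each transcription start. A window was found for 31 of the 35 genes, and Ccna2, Aurkb, Kif20a and Tpx2 were not matched. Ect2 and Prc1 had 2 overlapping windows each, and a gene was counted once if any of its windows held the letters. The letters searched, on both strands, were those of the CHR motif, the cell cycle genes homology region that MuvB contacts (TTTGAA or TTCGAA), and those of the CCAAT box that NF-Y binds (CCAAT). A CHR motif stood in the window of 26 of 31 genes (83.9%), against 21.7% of the 27025 genes with a window in the same table. A CCAAT box was found in 24 of them (77.4%), against 41.1% of all genes, and both kinds of letters stood in 22 (71%), against 8.61% of all genes. The 3 genes whose windows held neither were Birc5, Nuf2 and Nusap1. These matches are descriptions of sequence and not of binding. The 4 promoters below are those of the kinases Cdk1 and Plk1, the cyclin Ccnb2 and the anaphase activator Cdc20. They were the first, in the order Cdk1, Ccnb1, Ccnb2, Plk1, Aurkb, Cdc20, Top2a and Ube2c, whose windows hold both kinds of letters. Each runs 5′ to 3′ on the strand of its gene, from 120 bases before the start to 10 bases after it, with matches to either motif on either strand in capitals (ATTGG is the CCAAT box read on the other strand).
Cdk1 promoter (chr10:69352903-69353032, minus strand, GRCm38.p6): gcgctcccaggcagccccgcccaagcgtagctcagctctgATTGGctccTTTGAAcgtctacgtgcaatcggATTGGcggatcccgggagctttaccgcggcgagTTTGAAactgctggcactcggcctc
Ccnb2 promoter (chr9:70421545-70421674, minus strand, GRCm38.p6): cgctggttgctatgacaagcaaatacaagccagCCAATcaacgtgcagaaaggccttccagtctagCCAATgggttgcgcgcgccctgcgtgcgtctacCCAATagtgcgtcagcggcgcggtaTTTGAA
Plk1 promoter (chr7:122159315-122159444, plus strand, GRCm38.p6): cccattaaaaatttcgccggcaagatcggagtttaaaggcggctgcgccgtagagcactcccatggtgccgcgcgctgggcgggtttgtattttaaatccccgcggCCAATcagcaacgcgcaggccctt
Cdc20 promoter (chr4:118437334-118437463, minus strand, GRCm38.p6): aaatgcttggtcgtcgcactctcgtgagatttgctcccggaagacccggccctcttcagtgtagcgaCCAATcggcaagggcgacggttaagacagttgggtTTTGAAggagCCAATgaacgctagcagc
Cdk1 had 2 CHR motifs and 2 CCAAT boxes in the stretch shown. Ccnb2 had 3 CCAAT boxes and a CHR motif at the start site, and Cdc20 had 2 CCAAT boxes around its CHR motif. For Plk1 the CCAAT box stood in the stretch shown and its CHR motif lay beyond it, 30 bases into the gene.

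**Figure D1:**
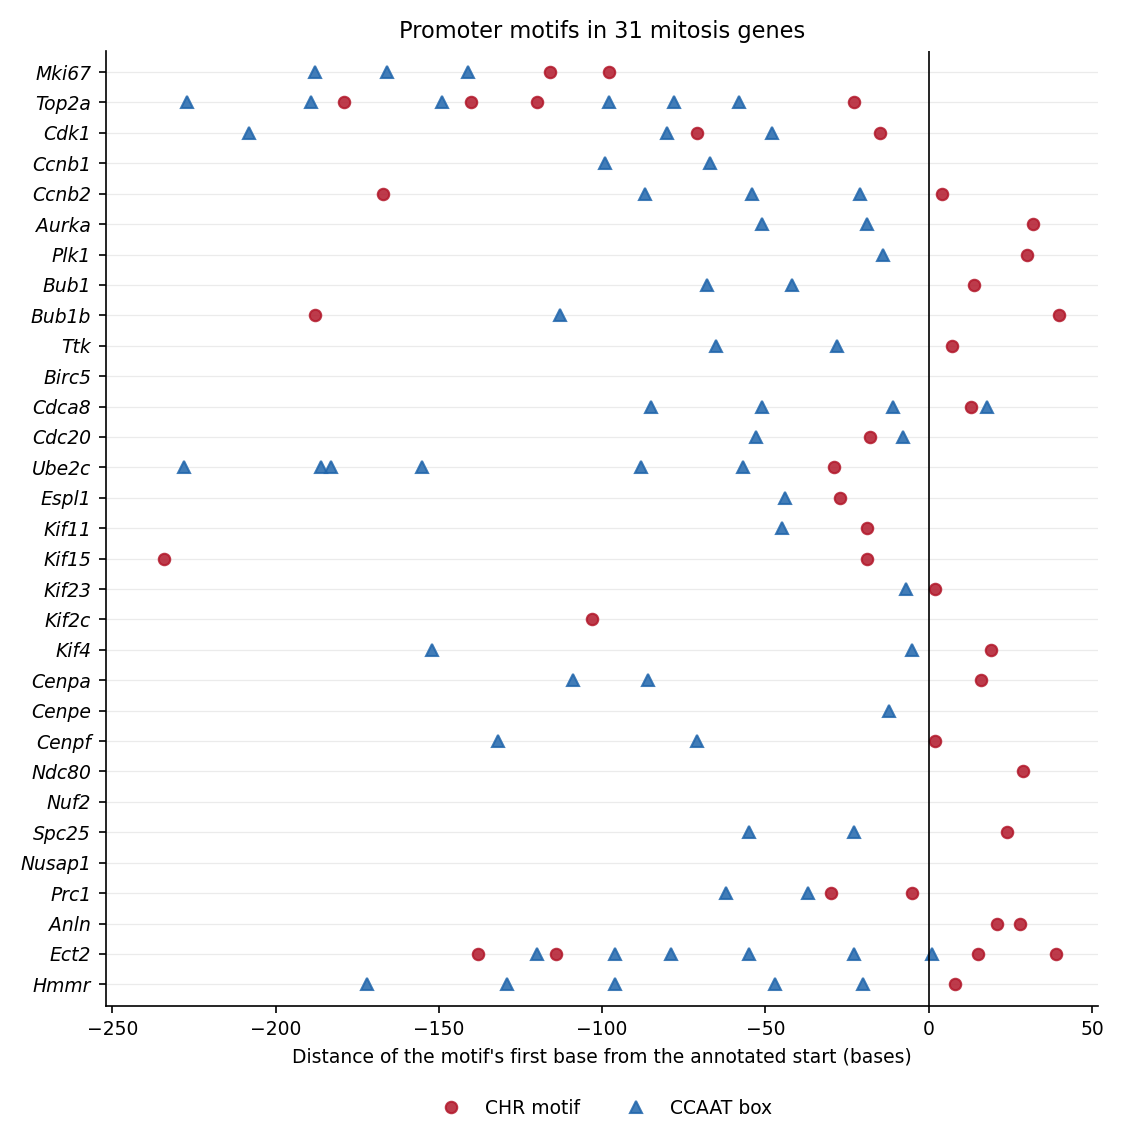
Position of each CHR motif (circles) and CCAAT box (triangles) in the promoter window of 31 mitosis genes, as the distance in bases of its first base from the annotated start (horizontal axis), with 1 row per gene. Most rows hold both symbols (22 of 31), and the rows of Birc5, Nuf2 and Nusap1 are empty. Ect2 and Prc1 had 2 windows each, from 2 annotated starts, so the same site can stand at 2 positions in their rows.

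The deposited values are CPM (reads of a gene scaled to a library of 1000000), and each is a whole number of reads, from which the depth of each library was recovered. Wound libraries held 1407498 to 10810590 reads and E14.5 libraries 15663677 to 18745431, so the mitosis genes rested on 555 to 8984 reads in a wound library and on 60015 to 79897 in an embryonic one. In 4 wound libraries fewer than 15000 genes had a read (Shh dermis Tg-9233, WT dermis Con-9229, WT epidermis Con-9097 and WT epidermis Con-9229, with 11179 to 14178 genes), against 17055 to 19419 in the other 16. In that order, 11, 7, 10 and 4 of the mitosis genes had no read, and in the others every gene had at least 1. Shh itself had 9.25, 7.35 and 10.7 CPM in Shh epidermis and 0, 1.5 and 0 CPM in WT epidermis, as the labels imply. In dermis it had 5.24, 1.25 and 5.61 CPM in Shh wounds and 3.58, 0.533 and 0 CPM in WT wounds, where the groups overlapped. Fibroblast markers summed to 28729 to 359492 CPM in dermis and 686 to 3585 CPM in epidermis, and keratinocyte markers to 6908 to 11891 CPM in epidermis and 173 to 986 CPM in dermis, so each tissue carried the markers of its label. Values per library are given in the order Tg-9101, Tg-9231 and Tg-9233 for Shh wounds, 3, 4, 5 and 7 for E14.5 skin, and Con-9097, Con-9098 and Con-9229 for WT wounds.

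Mitosis genes took a far larger part of the RNA of embryonic skin than of either kind of wound. Together the 35 genes summed to 679, 494 and 374 CPM in Shh dermis, to 4111, 4268, 4299 and 3417 CPM in E14.5 dermis, and to 411, 462 and 394 CPM in WT dermis. In epidermis the sums were 831, 620.5 and 791 CPM in Shh wounds, 4399, 4839, 4235 and 4406 CPM in E14.5 skin, and 557, 543 and 387 CPM in WT wounds. The embryonic sums stood above every wound sum in both tissues. Shh and WT sums overlapped in dermis, where they averaged 516 ± 153 and 423 ± 35.5 CPM (SD, n = 3 each). In epidermis the 3 Shh sums, 748 ± 112 CPM, stood above the 3 WT sums, 496 ± 94.5 CPM (SD, n = 3 each). One small RNA gene, Mir5105, took unequal parts of these libraries, with 0.881 to 1.70% of reads in Shh wounds, 0.707 to 0.912% in E14.5 skin and 1.62 to 2.33% in 4 WT libraries. In WT dermis Con-9229 it took 17.7% and in WT epidermis Con-9229 6.28% of reads. Its part in the CPM of the mitosis genes was not tested.

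**Figure D2:**
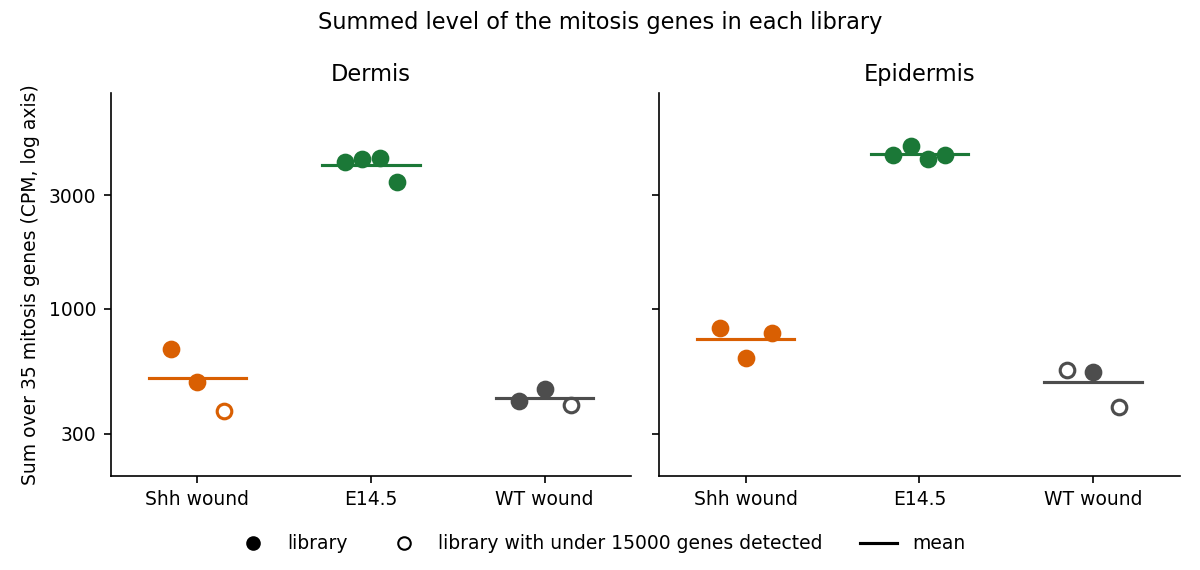
Summed level of the 35 mitosis genes (vertical axis, CPM, log scale) in each library of dermis and of epidermis, for Shh wounds, E14.5 skin and WT wounds, with 1 point per library. The E14.5 libraries sit between 3417 and 4839 CPM and all wound libraries between 374 and 831 CPM.

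The first comparison asked how the wounds of adult skin differ from embryonic skin that is forming hair follicles. In dermis all 35 genes were higher in E14.5 skin than in WT wounds at an adjusted p under 0.05 (limma on log2(CPM + 1), Benjamini-Hochberg over 19732 genes), where 49.4% of all genes tested were higher and 6.63% lower. In epidermis all 35 were also higher, where 47.7% of 19751 genes were higher and 11.4% lower. For none of the 35 did the 2 groups overlap in either tissue, which held for 53.2% of all genes in dermis and 50.5% in epidermis in the direction of E14.5. The median log2 fold change of the 35 was 3.52 in dermis (range 2.28 for Mki67 to 5.22 for Bub1) and 3.46 in epidermis (1.41 for Espl1 to 5.61 for Cdk1), beside medians over all genes tested of 0.78 and 0.66. With libraries rescaled by TMM the medians of the mitosis genes were 2.76 and 2.96, which is 2.5 and 2.62 above the median of all genes under that scaling, and all 35 stayed called in both tissues. That scaling moves the balance of calls over all genes, of which 9741 were higher and 1309 lower in dermis as deposited and 5024 and 2759 with TMM, and 9425 and 2255 in epidermis as deposited and 6638 and 3223 with TMM.

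Among the cyclins and CDK1 the differences were large in both tissues. Cdk1, the kinase that drives entry into mitosis, had 179, 153, 197 and 159.5 CPM in E14.5 dermis, against 13.2, 13.1 and 32.0 CPM in WT dermis (log2 fold change 3.20 ± 0.30, limma adjusted p = 9.32e-05). In epidermis it had 145, 171, 167 and 156 CPM in E14.5 epidermis, against 0, 6.39 and 3.75 CPM in WT epidermis (log2 fold change 5.61 ± 0.60, limma adjusted p = 0.000143). Cdk1 was without a read in WT epidermis Con-9097, while all 4 embryonic libraries were high and alike. Ccnb1, a B-type cyclin partner of CDK1, had 37.0, 31.3, 41.6 and 29.3 CPM in E14.5 dermis, against 1.07, 0.267 and 0 CPM in WT dermis (log2 fold change 4.69 ± 0.35, limma adjusted p = 4.27e-05). In epidermis Ccnb1 had 38.7, 54.0, 45.4 and 46.1 CPM in E14.5 epidermis, against 0, 1.36 and 0 CPM in WT epidermis (log2 fold change 5.13 ± 0.39, limma adjusted p = 2.73e-05). It was close to absent from WT wounds, with 4 reads over the 3 dermal libraries and 10 over the 3 epidermal ones. Ccna2, the A-type cyclin of S phase and early mitosis, had 271, 261, 265 and 225 CPM in E14.5 dermis, against 8.94, 8.53 and 3.55 CPM in WT dermis (log2 fold change 5.08 ± 0.28, limma adjusted p = 1.39e-05). Ccnb2, the second B-type cyclin, had 62.0, 55.1, 67.4 and 53.7 CPM in E14.5 dermis, against 4.65, 9.86 and 18.5 CPM in WT dermis (log2 fold change 2.51 ± 0.37, limma adjusted p = 0.000774), and was the member of its group with the smallest fold change in dermis.

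Mki67, which coats mitotic chromosomes and marks cycling cells, and Top2a, the topoisomerase that untangles sister DNA, were higher in the embryo too, and Mki67 had the smallest fold change of the 35 in dermis. Mki67 had 499, 598, 474 and 385 CPM in E14.5 dermis, against 122, 111 and 70.3 CPM in WT dermis (log2 fold change 2.28 ± 0.23, limma adjusted p = 0.000123). In epidermis Mki67 had 653, 674, 557 and 628 CPM in E14.5 epidermis, against 87.2, 145 and 96.0 CPM in WT epidermis (log2 fold change 2.54 ± 0.18, limma adjusted p = 1.84e-05). The groups stood well apart in both tissues. Top2a had 495, 479, 503 and 372 CPM in E14.5 dermis, against 48.3, 47.7 and 27.0 CPM in WT dermis (log2 fold change 3.50 ± 0.23, limma adjusted p = 2.48e-05). In epidermis Top2a had 486, 603, 498 and 507 CPM in E14.5 epidermis, against 46.0, 67.6 and 69.3 CPM in WT epidermis (log2 fold change 3.10 ± 0.16, limma adjusted p = 5.66e-06).

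The mitotic kinases and the spindle checkpoint were led by Bub1, a checkpoint kinase at the kinetochore. Bub1 had 82.9, 74.4, 97.0 and 58.9 CPM in E14.5 dermis, against 2.5, 1.60 and 0 CPM in WT dermis (log2 fold change 5.22 ± 0.43, limma adjusted p = 5.63e-05), the largest fold change of the 35 in dermis. In epidermis Bub1 had 61.4, 74.0, 65.7 and 65.2 CPM in E14.5 epidermis, against 0, 3.40 and 0 CPM in WT epidermis (log2 fold change 5.36 ± 0.52, limma adjusted p = 9.35e-05). Both tissues had WT libraries with no Bub1 read or almost none. Aurka, the centrosomal Aurora kinase, had 67.8, 71.6, 76.2 and 60.0 CPM in E14.5 dermis, against 1.79, 2.93 and 0 CPM in WT dermis (log2 fold change 4.97 ± 0.44, limma adjusted p = 7.41e-05). Plk1, the Polo-like kinase of spindle assembly and mitotic exit, had 56.3, 70.7, 53.0 and 56.6 CPM in E14.5 dermis, against 2.5, 4.53 and 4.26 CPM in WT dermis (log2 fold change 3.68 ± 0.25, limma adjusted p = 2.76e-05). In epidermis Plk1 had 73.7, 76.2, 67.5 and 68.7 CPM in E14.5 epidermis, against 13.9, 2.31 and 5.15 CPM in WT epidermis (log2 fold change 3.43 ± 0.45, limma adjusted p = 0.000374). Bub1b and Ttk, which also act in the checkpoint, had log2 fold changes of 3.36 ± 0.22 and 3.93 ± 0.54 in dermis and of 3.60 ± 0.36 and 3.24 ± 0.59 in epidermis.

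The chromosomal passenger complex corrects faulty attachments and prepares cytokinesis. Aurkb, its kinase, had 82.8, 81.7, 77.3 and 72.8 CPM in E14.5 dermis, against 5.72, 9.06 and 11.4 CPM in WT dermis (log2 fold change 3.08 ± 0.23, limma adjusted p = 4.29e-05). In epidermis Aurkb had 90.5, 86.1, 72.4 and 81.3 CPM in E14.5 epidermis, against 5.25, 7.34 and 1.87 CPM in WT epidermis (log2 fold change 3.97 ± 0.35, limma adjusted p = 5.75e-05). The kinase was even among the embryonic libraries of each tissue and scattered among the WT wounds. Birc5, which encodes survivin, had 82.2, 79.8, 86.7 and 79.1 CPM in E14.5 dermis, against 3.93, 5.60 and 10.7 CPM in WT dermis (log2 fold change 3.52 ± 0.29, limma adjusted p = 5.47e-05). In epidermis Birc5 had 80.6, 98.2, 85.6 and 94.6 CPM in E14.5 epidermis, against 12.9, 4.76 and 7.49 CPM in WT epidermis (log2 fold change 3.36 ± 0.29, limma adjusted p = 5.10e-05). Cdca8, which encodes borealin, had log2 fold changes of 4.07 ± 0.32 in dermis and 4.67 ± 0.64 in epidermis.

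Genes of anaphase onset and exit held 1 of the largest and the smallest fold change of the 35 in epidermis, those of Ube2c and Espl1. Cdc20, which activates the anaphase-promoting complex, had 75.1, 96.6, 72.6 and 89.9 CPM in E14.5 dermis, against 8.22, 5.60 and 6.39 CPM in WT dermis (log2 fold change 3.45 ± 0.21, limma adjusted p = 1.90e-05). In epidermis Cdc20 had 96.7, 84.2, 85.1 and 85.1 CPM in E14.5 epidermis, against 0, 8.16 and 15.5 CPM in WT epidermis (log2 fold change 4.06 ± 0.83, limma adjusted p = 0.00359). WT epidermis Con-9229 carried the most Cdc20 of its group and still stood below every embryonic library. Ube2c, the ubiquitin-conjugating enzyme of that complex, had 76.7, 74.9, 66.0 and 76.5 CPM in E14.5 epidermis, against 0, 1.90 and 0.468 CPM in WT epidermis (log2 fold change 5.52 ± 0.37, limma adjusted p = 1.58e-05). Espl1, the separase that cuts cohesin, had 73.0, 94.7, 69.7 and 64.1 CPM in E14.5 dermis, against 10.4, 16.8 and 12.1 CPM in WT dermis (log2 fold change 2.45 ± 0.22, limma adjusted p = 8.26e-05). In epidermis Espl1 had 91, 98.7, 85.4 and 88.4 CPM in E14.5 epidermis, against 49.2, 31.7 and 24.4 CPM in WT epidermis (log2 fold change 1.41 ± 0.22, limma adjusted p = 0.00103), the smallest fold change of the 35 there.

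The 6 mitotic kinesins, motors that move chromosomes and organise spindle fibres, had log2 fold changes of 2.73 to 3.77 in dermis and 2.83 to 3.63 in epidermis, a narrow range beside that of the cyclins. Kif11, the motor that pushes spindle poles apart, had 156, 153, 167 and 116 CPM in E14.5 dermis, against 10.4, 13.9 and 11.4 CPM in WT dermis (log2 fold change 3.53 ± 0.19, limma adjusted p = 1.37e-05). In epidermis Kif11 had 172, 171, 159.7 and 178 CPM in E14.5 epidermis, against 40.9, 13.5 and 5.15 CPM in WT epidermis (log2 fold change 3.46 ± 0.54, limma adjusted p = 0.000944). The other motors were Kif15, which backs up Kif11, Kif20a and Kif23, which work in the central spindle, Kif2c, which shortens microtubules, and the chromokinesin Kif4. In dermis their log2 fold changes were 3.73 ± 0.24 for Kif15, 3.77 ± 0.25 for Kif20a, 2.73 ± 0.18 for Kif23, 3.66 ± 0.64 for Kif2c and 3.17 ± 0.29 for Kif4.

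For centromere and kinetochore genes the median fold change (log2) was 3.15 in dermis and 3.92 in epidermis. Cenpf, a large protein of the outer kinetochore, had 186, 217, 238 and 144 CPM in E14.5 dermis, against 21.1, 28.5 and 48.3 CPM in WT dermis (log2 fold change 2.61 ± 0.29, limma adjusted p = 0.000186). In epidermis Cenpf had 298, 306, 302 and 299 CPM in E14.5 epidermis, against 11.3, 30.0 and 17.3 CPM in WT epidermis (log2 fold change 3.98 ± 0.27, limma adjusted p = 1.74e-05). E14.5 epidermis carried more Cenpf than E14.5 dermis in every library, while the WT tissues overlapped. Nuf2, a subunit of the NDC80 complex that grips microtubules, had 32.1, 37.8, 34.0 and 32.9 CPM in E14.5 epidermis, against 16.1, 3.40 and 3.28 CPM in WT epidermis (log2 fold change 2.36 ± 0.48, limma adjusted p = 0.00357). Cenpa, the histone of the centromere, Cenpe, a kinetochore motor, and the NDC80 complex subunits Ndc80 and Spc25 had log2 fold changes of 3.40 ± 0.49, 2.69 ± 0.18, 2.90 ± 0.49 and 4.33 ± 0.48 in dermis. In epidermis they were 3.85 ± 0.28 for Cenpa, 4.37 ± 0.92 for Cenpe, 2.96 ± 0.68 for Ndc80 and 5.19 ± 0.35 for Spc25.

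The last group assembles the spindle and splits the cell. Tpx2, which activates Aurka on spindle microtubules, had 142, 148, 146 and 124 CPM in E14.5 dermis, against 9.65, 14.9 and 7.82 CPM in WT dermis (log2 fold change 3.62 ± 0.22, limma adjusted p = 2.00e-05). In epidermis Tpx2 had 142, 148, 141 and 137 CPM in E14.5 epidermis, against 24.8, 13.9 and 12.2 CPM in WT epidermis (log2 fold change 3.06 ± 0.23, limma adjusted p = 2.55e-05). Anln, which encodes the contractile ring protein anillin, had 136, 145, 128 and 136 CPM in E14.5 epidermis, against 39.6, 32.2 and 15.9 CPM in WT epidermis (log2 fold change 2.28 ± 0.28, limma adjusted p = 0.000263), the second smallest fold change in that tissue. Nusap1, Prc1 and Hmmr, which bundle or bind microtubules, and Ect2, which switches on RhoA for cytokinesis, had dermal log2 fold changes of 3.92 ± 0.22, 2.53 ± 0.20, 4.04 ± 0.33 and 3.28 ± 0.20. Their epidermal values were 3.28 ± 0.40 for Nusap1, 2.75 ± 0.35 for Prc1, 4.72 ± 0.57 for Hmmr and 2.86 ± 0.39 for Ect2.

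**Figure D3:**
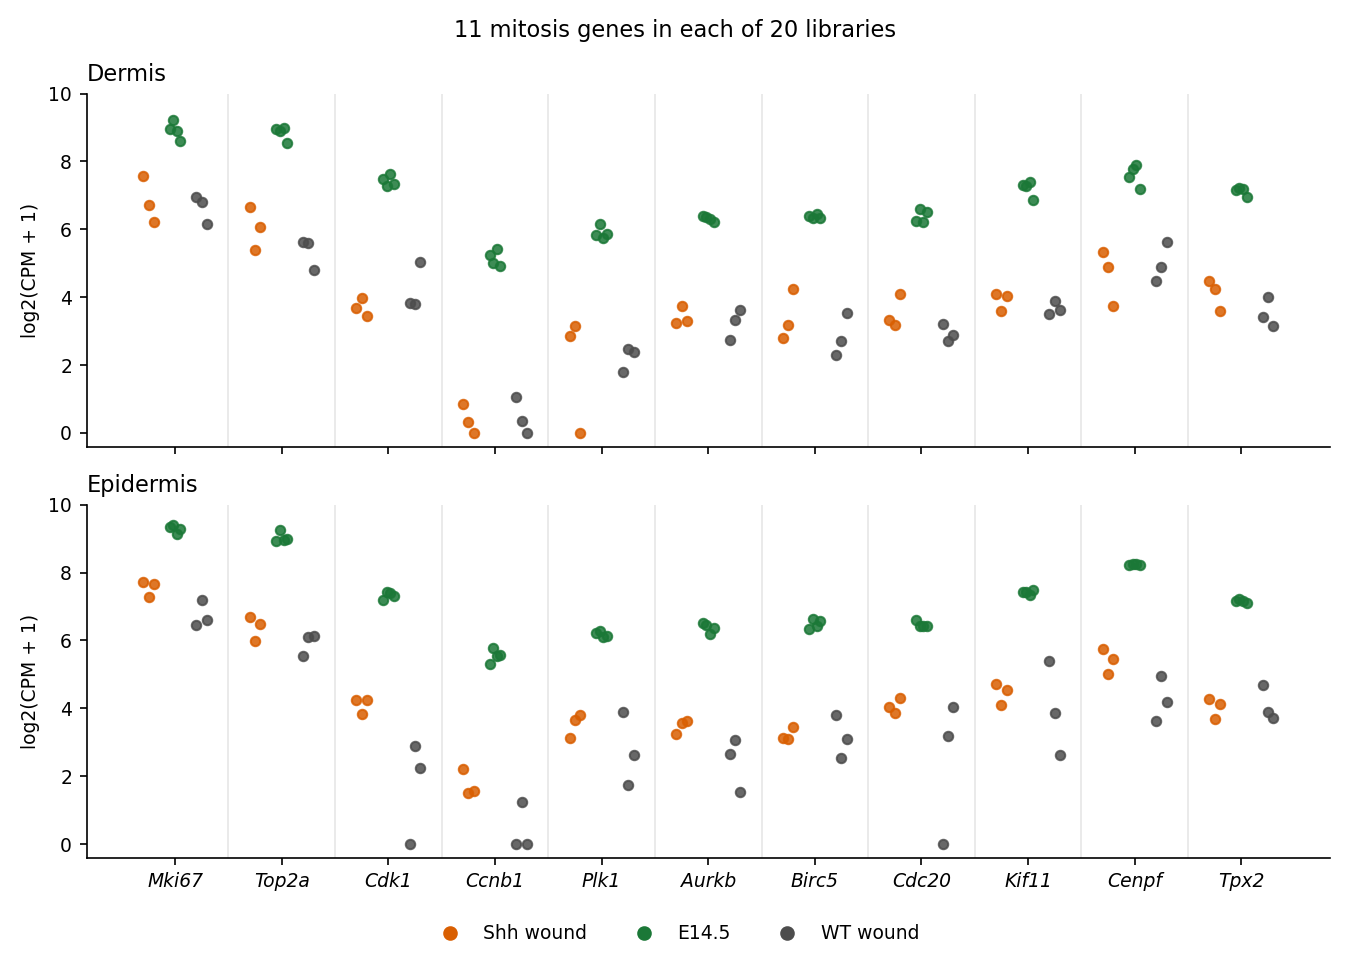
Level of 11 mitosis genes in each library (vertical axis, log2(CPM + 1)) of dermis (top) and epidermis (bottom), for Shh wounds, E14.5 skin and WT wounds, with 1 point per library. The E14.5 points of each gene lie above all of its wound points, for Mki67 in dermis at 385 to 598 CPM against 70.3 to 122 CPM in WT wounds.

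**Figure D4:**
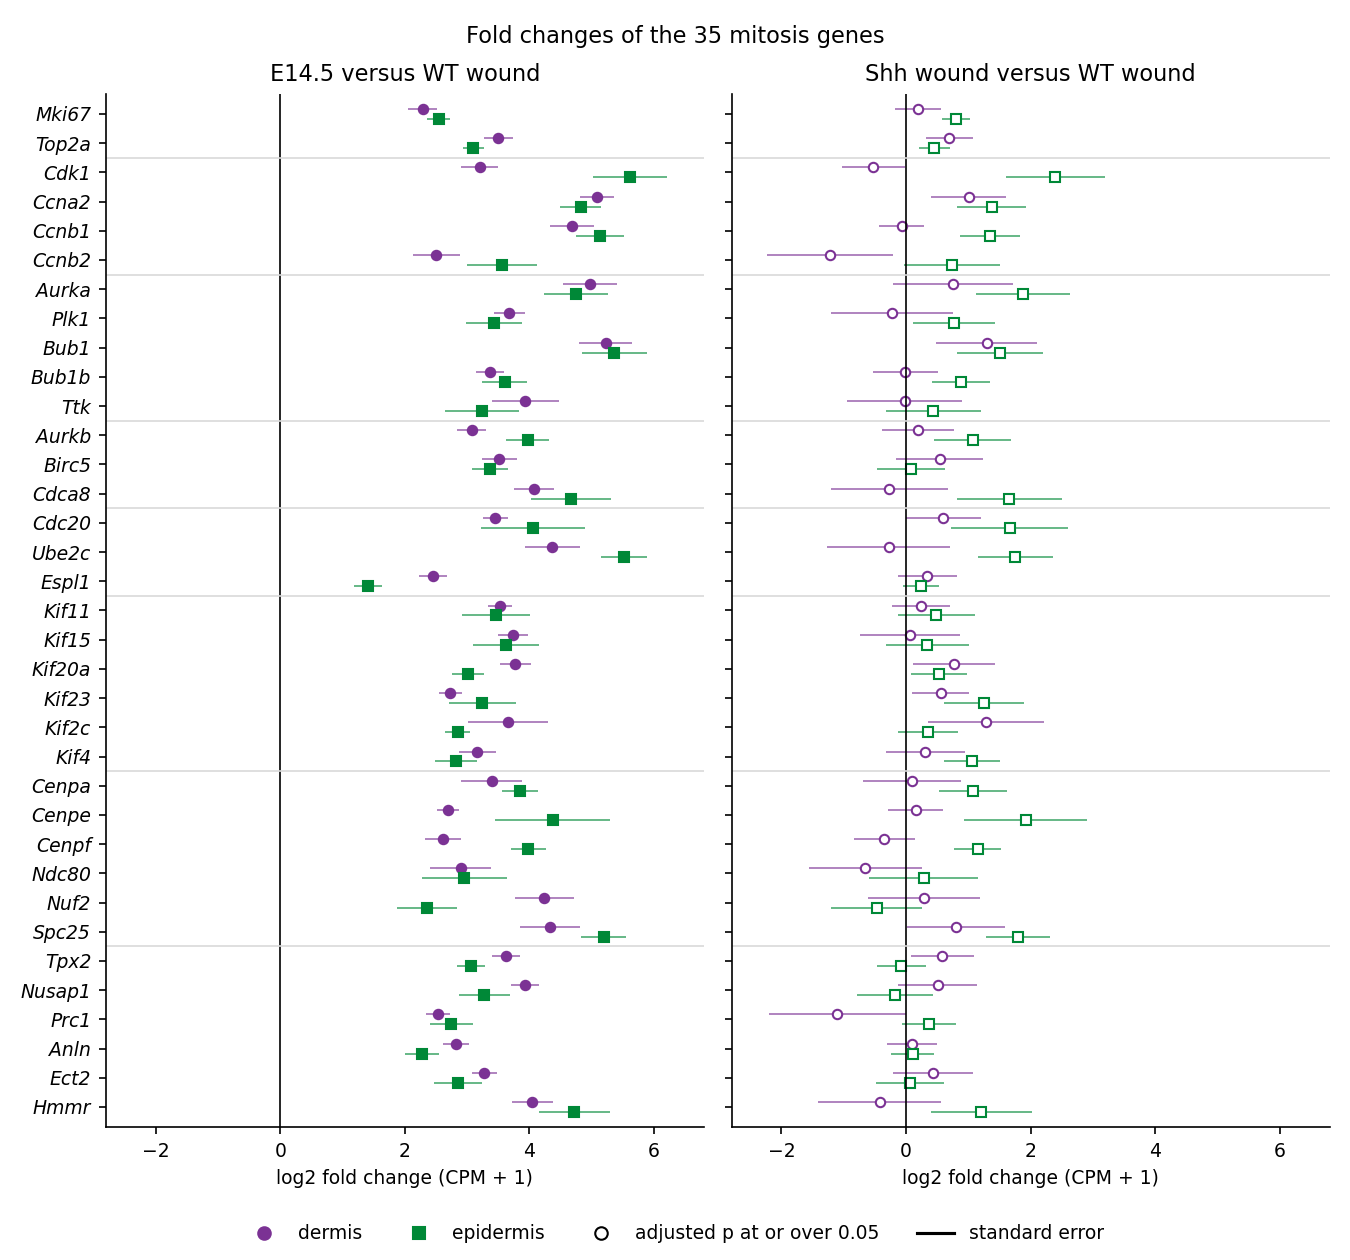
Log2 fold change of each of the 35 genes, on log2(CPM + 1), with its standard error as a line, for E14.5 skin against WT wounds (left) and Shh against WT wounds (right), in dermis (circles) and epidermis (squares), filled where the limma adjusted p is under 0.05. For E14.5 skin against WT wounds every value lies above 0, from 1.41 to 5.61, and for Shh against WT wounds, where no symbol is filled, they run from -1.22 to 2.40.

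Other cell cycle genes were read as lists from the same fits. Their counts stand beside 49.4% of all genes higher and 6.63% lower in dermis, and 47.7% and 11.4% in epidermis. Of 30 DNA replication genes, which act in S phase, 30 were higher in E14.5 dermis and 30 in E14.5 epidermis, with median log2 fold changes of 3.25 and 3.29. Mcm2, a subunit of the replicative helicase, had log2 fold changes of 3.09 ± 0.19 and 3.43 ± 0.14, and Rrm2, a subunit of ribonucleotide reductase, of 3.72 ± 0.23 and 3.02 ± 0.15, in dermis and epidermis in that order. Of 25 other centromere and kinetochore genes all 25 were higher in both tissues, and of 24 other spindle and cytokinesis genes 23 in dermis (all but Cit) and 24 in epidermis. The condensin and cohesin list (13 of 13 in both) and the genes that control CDK1 (13 of 13 in dermis and 12 of 13 in epidermis, all but Cdc25b) were also higher. Core subunits of the anaphase-promoting complex were higher in 13 of 14 in each tissue, all but Anapc2, with medians of 1.56 and 1.64. Transcription regulators of cell cycle genes were higher in 16 of 19 in dermis and 15 of 19 in epidermis, among them Foxm1, at 65.6 ± 8.44 CPM in E14.5 dermis and 16.1 ± 2.27 CPM in WT dermis (SD, n = 4 and 3). As deposited, the regulators that did not pass were Lin37, Lin52 and Rbl2 in dermis, and Lin37, Rbl2, E2f4 and Nfyc in epidermis. With TMM scaling 5024 of 19732 genes were higher and 2759 lower in dermis, and 6638 of 19751 higher and 3223 lower in epidermis. Beside these, DNA replication genes gave 28 higher in dermis and 29 in epidermis, and the other centromere and kinetochore genes 23 and 22. The other spindle genes gave 22 and 23, condensin and cohesin genes 11 and 12, and CDK1 control genes 12 and 11. Subunits of the anaphase-promoting complex gave 9 and 12, and transcription regulators 13 and 12, with 1 lower in each tissue.

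Genes of G1 went both ways. Of 16 G1 cyclins and CDK inhibitors, 11 were higher and 2 lower in E14.5 dermis, and 9 were higher and 5 lower in E14.5 epidermis. These stand beside the 49.4% of all genes higher and 6.63% lower in dermis, and 47.7% and 11.4% in epidermis. With TMM scaling 7 of the 16 were higher and 4 lower in dermis, beside 5024 higher and 2759 lower of 19732 genes. In epidermis 7 were higher and 5 lower with TMM, beside 6638 higher and 3223 lower of 19751 genes. As deposited, the lower ones were the CDK inhibitors Cdkn2a and Cdkn2b in dermis. In epidermis they were Cdkn1a, which encodes p21, Cdkn2b, Cdkn2c and the antiproliferative genes Btg1 and Btg2. Cdkn1c, which encodes p57, went the other way and stood at 1639 ± 614 CPM in E14.5 dermis and 73.6 ± 12.1 CPM in WT dermis (SD, n = 4 and 3; log2 fold change 4.39 ± 0.30, limma adjusted p = 2.86e-05).

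Summed markers of cell types differed between embryo and wound in the same comparison. Such sums do not tell cell number from RNA per cell. In dermis the 8 immune markers summed to 161 to 189 CPM in E14.5 skin and 874 to 2541 CPM in WT wounds, and the 8 fibroblast markers to 28729 to 31106 and 256170 to 303905 CPM. Skeletal muscle markers summed to 6490 to 24994 CPM in E14.5 dermis and 34.1 to 49.7 CPM in WT dermis, erythroid markers to 464 to 1161 and 1.43 to 3.55 CPM, and endothelial markers to 876 to 996 and 137 to 243 CPM. In epidermis the 6 markers of differentiated keratinocytes summed to 7067 to 11469 CPM in E14.5 skin and 85789 to 106464 CPM in WT wounds. Skeletal muscle markers summed to 791 to 3235 CPM in E14.5 epidermis and 5.03 to 6.38 CPM in WT epidermis, and immune markers to 17.6 to 31.7 and 402 to 653 CPM. Melanocyte markers summed to 91.3 to 139 CPM in E14.5 epidermis and 13.1 to 19.7 CPM in WT epidermis, erythroid markers to 34.0 to 55.4 and 0 to 7.75 CPM, and endothelial markers to 18.9 to 66.7 and 3.54 to 16.9 CPM. In all 3 WT epidermis libraries 5 of the 8 skeletal muscle markers (Acta1, Myh3, Myod1, Myog and Tnnt1) were at 0. None of the fibroblast or endothelial markers in dermis, or of the differentiated keratinocyte markers in epidermis, was at 0 throughout a group. The part of cell makeup in the change of the mitosis genes was not tested.

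The second comparison asked what Shh in the epidermis changed in the wound. In dermis none of the 35 genes passed an adjusted p of 0.05 in limma, as none of 19430 genes did (0%), and none had an unadjusted p under 0.05, beside 2.31% of all genes higher and 0.499% lower. On recovered reads edgeR called no gene and DESeq2 called 4 genes, none of them among the 35, and neither had an unadjusted p under 0.05 for any of the 35. The paper reports Ptch1 as raised in dermis in its own test, and limma did not call it here. The log2 fold change was above 0 for 23 of 35, beside 61.9% of all genes, with a median of 0.20 against 0.13 over all genes. In 4 genes, Ccna2, Bub1, Kif23 and Kif2c, every Shh library stood above every WT library, as it did in 7.74% of all genes, and in none below, against 1.73% of all genes.

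Ccna2 had 10.7, 13.0 and 20.4 CPM in Shh dermis, against 8.94, 8.53 and 3.55 CPM in WT dermis (log2 fold change 1.01 ± 0.60). Bub1 had 2.79, 3.0 and 7.91 CPM in Shh dermis, against 2.5, 1.60 and 0 CPM in WT dermis (log2 fold change 1.30 ± 0.81), the largest of the 35. Kif2c had 7.21, 9.25 and 7.91 CPM in Shh dermis, against 5.72, 6.66 and 0 CPM in WT dermis (log2 fold change 1.29 ± 0.93). These genes were low in both kinds of wound, and WT dermis Con-9229 had the lowest value of each. Kif23 had 19.0, 14.9 and 14.8 CPM in Shh dermis, against 11.8, 10.9 and 9.24 CPM in WT dermis (log2 fold change 0.56 ± 0.46). Ccnb2 had 9.83, 7.75 and 0 CPM in Shh dermis, against 4.65, 9.86 and 18.5 CPM in WT dermis (log2 fold change -1.22 ± 1.02), and its Shh and WT values overlapped. Mki67 had 189, 104 and 72.7 CPM in Shh dermis, against 122, 111 and 70.3 CPM in WT dermis (log2 fold change 0.20 ± 0.37). Top2a had 101, 41.4 and 65.5 CPM in Shh dermis, against 48.3, 47.7 and 27.0 CPM in WT dermis (log2 fold change 0.70 ± 0.38). Shh dermis Tg-9101 was the highest library for both, and the other Shh libraries lay within or near the WT range.

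Cdk1 had 11.8, 14.9 and 9.95 CPM in Shh dermis, against 13.2, 13.1 and 32.0 CPM in WT dermis (log2 fold change -0.52 ± 0.50) and was highest in WT dermis Con-9229. Aurkb had 8.52, 12.2 and 8.93 CPM in Shh dermis, against 5.72, 9.06 and 11.4 CPM in WT dermis (log2 fold change 0.19 ± 0.58). Cdc20 had 9.01, 8.12 and 16.1 CPM in Shh dermis, against 8.22, 5.60 and 6.39 CPM in WT dermis (log2 fold change 0.60 ± 0.60). Neither gene separated the groups. Kif11 had 16.2, 11 and 15.6 CPM in Shh dermis, against 10.4, 13.9 and 11.4 CPM in WT dermis (log2 fold change 0.24 ± 0.47). Cenpf had 39.3, 28.4 and 12.2 CPM in Shh dermis, against 21.1, 28.5 and 48.3 CPM in WT dermis (log2 fold change -0.35 ± 0.48). Tpx2 had 21.1, 17.9 and 11 CPM in Shh dermis, against 9.65, 14.9 and 7.82 CPM in WT dermis (log2 fold change 0.58 ± 0.51). All 3 overlapped between Shh and WT wounds.

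Plk1 had 6.23, 7.87 and 0 CPM in Shh dermis, against 2.5, 4.53 and 4.26 CPM in WT dermis (log2 fold change -0.22 ± 0.98). Birc5 had 5.90, 8.0 and 17.9 CPM in Shh dermis, against 3.93, 5.60 and 10.7 CPM in WT dermis (log2 fold change 0.54 ± 0.70). Ccnb1 rested on 7 reads in Shh dermis and 4 in WT dermis, too few to compare. The smallest log2 fold changes were those of Bub1b (-0.01 ± 0.52), Ttk (-0.02 ± 0.92) and Kif15 (0.06 ± 0.81). Bub1b had 17.4, 16.0 and 7.65 CPM in Shh dermis, against 13.6, 17.6 and 9.24 CPM in WT dermis. Ttk had 5.24, 2.25 and 0 CPM in Shh dermis, against 3.22, 4.00 and 0 CPM in WT dermis. Kif15 had 11.6, 9.25 and 1.79 CPM in Shh dermis, against 5.72, 8.0 and 4.26 CPM in WT dermis. In each of these the groups overlapped. The standard errors of 0.37 to 1.10 log2 units over the 35 genes set what could be seen at this depth. Leaving out 1 library at a time moved the median of the 35 between -0.03 and 0.51, and it was 0.39 without Shh dermis Tg-9233 and WT dermis Con-9229. In that setting, chosen after the data were seen, 14 of the 35 were higher in every Shh library, beside 28.2% of all genes. None was lower in every one, beside 8.56%, and 2 were higher at an unadjusted p under 0.05 in limma, beside 4.96%. With E14.5 libraries in the same limma fit, 5 were higher at an unadjusted p under 0.05, beside 7.48% of all genes. Endothelial markers summed to 289 to 469 CPM in Shh dermis and 137 to 243 CPM in WT dermis.

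In epidermis no mitosis gene passed the test either. None of the 35 had an adjusted p under 0.05 in limma, as none of 19252 genes did (0%), and on recovered reads edgeR called 6 and DESeq2 64 genes, none of them among the 35. Limma thus did not call Shh itself, though each Shh epidermis library stood above each WT one for it. The paper reports Shh, Gli2 and Ptch1 as raised in epidermis in its own test. It also lists cell proliferation among the processes enriched with Shh overexpression. The absence of calls here therefore does not show that the mitosis genes were unchanged. At an unadjusted p under 0.05, limma had 9 of the 35 higher and none lower, beside 9.14% of all genes higher, while edgeR had 4 higher, beside 3.33% of all genes, and DESeq2 7, beside 2.34%. In limma the log2 fold change was above 0 in 32 of 35, beside 71.6% of all genes, and the median was 0.80, against 0.21 over all genes. It was below 0 in 8 of the 35 in edgeR, beside 37.3% of all genes, and in 8 in DESeq2, beside 41.8%. Without WT epidermis Con-9229, 10 of the 35 were below 0 in limma, beside 35.1% of all genes. Without WT epidermis Con-9097, 0 were, beside 30.7%. In 14 genes every Shh library stood above every WT library, beside 14.3% of all genes. They were Mki67, Cdk1, Ccna2, Ccnb1, Aurka, Aurkb, Cdca8, Ube2c, Kif23, Kif4, Cenpa, Cenpe, Cenpf and Spc25.

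Mki67 had 209, 156 and 201 CPM in Shh epidermis, against 87.2, 145 and 96.0 CPM in WT epidermis (log2 fold change 0.80 ± 0.23, unadjusted p = 0.00625 and adjusted p = 0.364 in limma), the smallest adjusted p of the 35. Cdk1 had 18.0, 13.3 and 17.9 CPM in Shh epidermis, against 0, 6.39 and 3.75 CPM in WT epidermis (log2 fold change 2.40 ± 0.79, limma adjusted p = 0.421). For both genes no WT library reached the lowest Shh library. Cenpf had 52.6, 31.5 and 42.8 CPM in Shh epidermis, against 11.3, 30.0 and 17.3 CPM in WT epidermis (log2 fold change 1.15 ± 0.38, limma adjusted p = 0.415). Ube2c had 3.98, 3.78 and 5.86 CPM in Shh epidermis, against 0, 1.90 and 0.468 CPM in WT epidermis (log2 fold change 1.75 ± 0.60, limma adjusted p = 0.423). Aurka had 10.4, 8.17 and 8.51 CPM in Shh epidermis, against 0, 3.67 and 3.28 CPM in WT epidermis (log2 fold change 1.88 ± 0.76, limma adjusted p = 0.484). For these 3 genes WT Con-9098 came nearest to the Shh libraries. Cenpe had 26.9, 19.6 and 26.2 CPM in Shh epidermis, against 0, 13.3 and 19.2 CPM in WT epidermis (log2 fold change 1.92 ± 0.99, limma adjusted p = 0.561), with the widest error of the 35. WT epidermis Con-9097 had no read for Cdk1, Ube2c, Aurka or Cenpe. Aurkb had 8.42, 10.9 and 11.3 CPM in Shh epidermis, against 5.25, 7.34 and 1.87 CPM in WT epidermis (log2 fold change 1.07 ± 0.61, limma adjusted p = 0.591). Spc25 had 4.16, 1.94 and 4.74 CPM in Shh epidermis, against 0, 1.09 and 0 CPM in WT epidermis, on 8 WT reads. Ccnb1 had 3.61, 1.84 and 1.95 CPM in Shh epidermis, against 0, 1.36 and 0 CPM in WT epidermis, on 10 WT reads. All of these WT reads came from Con-9098.

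Other mitosis genes overlapped between the groups. Top2a had 103, 62.5 and 87.6 CPM in Shh epidermis, against 46.0, 67.6 and 69.3 CPM in WT epidermis (log2 fold change 0.46 ± 0.25). Plk1 had 7.68, 11.6 and 12.8 CPM in Shh epidermis, against 13.9, 2.31 and 5.15 CPM in WT epidermis (log2 fold change 0.77 ± 0.66). Cdc20 had 15.5, 13.7 and 18.7 CPM in Shh epidermis, against 0, 8.16 and 15.5 CPM in WT epidermis (log2 fold change 1.66 ± 0.94). Each had a WT library at or above the lowest Shh library. Kif11 had 25.3, 16.0 and 22.0 CPM in Shh epidermis, against 40.9, 13.5 and 5.15 CPM in WT epidermis (log2 fold change 0.49 ± 0.62). Tpx2 had 18.2, 11.8 and 16.6 CPM in Shh epidermis, against 24.8, 13.9 and 12.2 CPM in WT epidermis (log2 fold change -0.07 ± 0.40). Birc5 had 7.77, 7.55 and 9.91 CPM in Shh epidermis, against 12.9, 4.76 and 7.49 CPM in WT epidermis (log2 fold change 0.09 ± 0.55). With Ect2, at 14.2, 9.19 and 13.8 CPM in Shh epidermis, against 23.6, 11.1 and 5.62 CPM in WT epidermis (log2 fold change 0.07 ± 0.54), Tpx2 and Birc5 had the values nearest to 0. WT epidermis Con-9097, which had no read for Cdc20, was the highest of the 6 wound libraries for Plk1, Kif11, Tpx2, Birc5 and Ect2. The 3 genes with a value below 0 in limma were Nuf2, Tpx2 and Nusap1.

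WT epidermis Con-9097 and Con-9229 are both libraries with few detected genes, and without them 1 WT library was left, whose spread is then taken from the Shh libraries. In that setting, chosen after the data were seen, the median of the 35 was 0.52, none was called and 8 were higher at an unadjusted p under 0.05, beside 5.08% of all genes. Against WT epidermis Con-9098 alone, 26 of the 35 were higher in every Shh library and 2 lower in every one, beside 27.8% and 24.3% of all genes. Leaving out 1 library at a time kept the median between 0.62 and 1.02. With E14.5 libraries in the same fit, which adds their smaller spread, 148 genes were called and still none of the 35. In that fit 17 of the 35 were higher at an unadjusted p under 0.05, beside 15.3% of all genes. Melanocyte markers summed to 51.5 to 89.5 CPM in Shh epidermis and 13.1 to 19.7 CPM in WT epidermis, and keratinocyte markers to 9787 to 11891 and 6908 to 10388 CPM. The part of cell makeup in these differences was not tested.

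Against E14.5 skin, the Shh wounds were low in every mitosis gene. All 35 were lower in Shh dermis, beside 42.5% of 19734 genes lower and 8.08% higher. In Shh epidermis all 35 were lower too, beside 51.7% of 19775 genes lower and 19.6% higher. The median log2 fold changes were -3.38 (range -4.75 to -2.09) and -2.82 (-3.86 to -1.17), beside -0.61 and -0.45 over all genes. This comparison shares its E14.5 libraries with the one above. The groups overlapped in none of the 35 in either tissue, and that held for 47.7% and 51.1% of all genes in this direction. With TMM the medians were -2.76 and -2.24, and all 35 stayed lower in both tissues, while over all genes 2984 were higher and 4680 lower in dermis (1594 and 8393 as deposited), and 6057 higher and 7067 lower in epidermis (3869 and 10223 as deposited). On recovered reads edgeR and DESeq2 each called 34 of the 35 in dermis and not Prc1.

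Ccnb1 differed most in dermis, with 0.819, 0.250 and 0 CPM in Shh dermis, against 37.0, 31.3, 41.6 and 29.3 CPM in E14.5 dermis (log2 fold change -4.75 ± 0.32, limma adjusted p = 3.35e-05), on 7 reads in the Shh libraries. Ube2c had 6.06, 4.37 and 0 CPM in Shh dermis, against 83.1, 78.7, 91.7 and 79.7 CPM in E14.5 dermis (log2 fold change -4.65 ± 0.60, limma adjusted p = 0.000463). Hmmr had 5.41, 7.0 and 0 CPM in Shh dermis, against 85, 79.7, 91.5 and 69.1 CPM in E14.5 dermis (log2 fold change -4.46 ± 0.64, limma adjusted p = 0.000801). Shh dermis Tg-9233 had no read for any of the 3. Mki67 was at the other end, with 189, 104 and 72.7 CPM in Shh dermis, against 499, 598, 474 and 385 CPM in E14.5 dermis (log2 fold change -2.09 ± 0.30, limma adjusted p = 0.000834). Espl1 had 14.7, 24.0 and 12.8 CPM in Shh dermis, against 73.0, 94.7, 69.7 and 64.1 CPM in E14.5 dermis (log2 fold change -2.11 ± 0.24, limma adjusted p = 0.000272). Kif23 had 19.0, 14.9 and 14.8 CPM in Shh dermis, against 76.9, 85.2, 74.9 and 68.4 CPM in E14.5 dermis (log2 fold change -2.17 ± 0.16, limma adjusted p = 4.53e-05). In these genes too each Shh library stayed below each embryonic one.

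In epidermis the largest difference was that of Bub1, with 4.35, 2.35 and 4.60 CPM in Shh epidermis, against 61.4, 74.0, 65.7 and 65.2 CPM in E14.5 epidermis (log2 fold change -3.86 ± 0.18, limma adjusted p = 2.22e-08). Ccnb1 had 3.61, 1.84 and 1.95 CPM in Shh epidermis, against 38.7, 54.0, 45.4 and 46.1 CPM in E14.5 epidermis (log2 fold change -3.79 ± 0.20, limma adjusted p = 4.33e-08). Ube2c had 3.98, 3.78 and 5.86 CPM in Shh epidermis, against 76.7, 74.9, 66.0 and 76.5 CPM in E14.5 epidermis (log2 fold change -3.77 ± 0.15, limma adjusted p = 6.55e-09). The Shh libraries all had reads for these genes and lay close together. Espl1 had 35.9, 41.3 and 42.6 CPM in Shh epidermis, against 91, 98.7, 85.4 and 88.4 CPM in E14.5 epidermis (log2 fold change -1.17 ± 0.10, limma adjusted p = 1.73e-06), the smallest of the 35. Mki67 had 209, 156 and 201 CPM in Shh epidermis, against 653, 674, 557 and 628 CPM in E14.5 epidermis (log2 fold change -1.74 ± 0.13, limma adjusted p = 5.08e-07). Kif4 had 24.6, 19.4 and 22.2 CPM in Shh epidermis, against 81.9, 84.9, 71.6 and 71.4 CPM in E14.5 epidermis (log2 fold change -1.77 ± 0.12, limma adjusted p = 2.39e-07).

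Dermis and epidermis of the embryo differed little in the mitosis genes. Of the 35, 2 were higher in E14.5 dermis (Ccna2 and Nuf2) and 12 lower, beside 31.9% of 19712 genes higher and 35.6% lower. The 12 were Mki67, Ccnb1, Plk1, Ttk, Cdca8, Espl1, Kif15, Kif2c, Cenpe, Cenpf, Prc1 and Ect2. The differences ran from -0.77 (Ttk) to 0.53 (Ccna2) log2 units with a median of -0.07, beside -0.05 over all genes, and standard errors of 0.07 to 0.16. In 2 genes every dermal library stood above every epidermal one and in 8 below, beside 29.5% and 32.6% of all genes. With TMM 3 were higher and 10 lower, beside 6568 higher and 6614 lower of 19712 genes. Without E14.5 epidermis 4 a total of 9 were called, and the share of all genes called in that fit is not given here.

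Ttk had 38.5, 44.0, 50.5 and 33.5 CPM in E14.5 dermis, against 59.6, 83.5, 69.7 and 72.7 CPM in E14.5 epidermis (log2 fold change -0.77 ± 0.14, limma adjusted p = 0.000479). Cenpf had 186, 217, 238 and 144 CPM in E14.5 dermis, against 298, 306, 302 and 299 CPM in E14.5 epidermis (log2 fold change -0.64 ± 0.13, limma adjusted p = 0.00147). Kif15 had 97.4, 101, 93.9 and 70.1 CPM in E14.5 dermis, against 136, 150.3, 128 and 129 CPM in E14.5 epidermis (log2 fold change -0.59 ± 0.11, limma adjusted p = 0.000882). E14.5 dermis 7 was the lowest dermal library in each of these 3. Ccna2 had 271, 261, 265 and 225 CPM in E14.5 dermis, against 165, 189.8, 165 and 185 CPM in E14.5 epidermis (log2 fold change 0.53 ± 0.08, limma adjusted p = 0.000194). Hmmr (0.01 ± 0.09), Cenpa (-0.01 ± 0.07) and Nusap1 (-0.01 ± 0.11) had the log2 fold changes nearest to 0. Hmmr had 85, 79.7, 91.5 and 69.1 CPM in E14.5 dermis, against 82.2, 84.6, 76.3 and 78.8 CPM in E14.5 epidermis. Cenpa had 86.2, 86.2, 97.5 and 83.8 CPM in E14.5 dermis, against 94.4, 88.4, 86.6 and 86.5 CPM in E14.5 epidermis. Nusap1 had 115, 99.3, 114 and 83.6 CPM in E14.5 dermis, against 94.2, 111, 103 and 106 CPM in E14.5 epidermis. Values of the 2 tissues interleaved in all 3.

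In Shh wounds few mitosis genes differed between the tissues. Of the 35, none was higher in dermis and 3, Ccnb1, Espl1 and Kif4, were lower in limma, beside 13.4% of 19685 genes higher and 19.6% lower, and the median log2 fold change was -0.54, against -0.22 over all genes. A value below 0 was found in 31 of the 35, beside 59.7% of all genes, and in 8 every dermal library was below every epidermal one, beside 31.6% of all genes. Espl1 had 14.7, 24.0 and 12.8 CPM in Shh dermis, against 35.9, 41.3 and 42.6 CPM in Shh epidermis (log2 fold change -1.22 ± 0.28, limma adjusted p = 0.0112). Kif4 had 14.1, 8.75 and 7.14 CPM in Shh dermis, against 24.6, 19.4 and 22.2 CPM in Shh epidermis (log2 fold change -1.11 ± 0.32, limma adjusted p = 0.0301). Ccnb1 had 0.819, 0.250 and 0 CPM in Shh dermis, against 3.61, 1.84 and 1.95 CPM in Shh epidermis (log2 fold change -1.36 ± 0.36, limma adjusted p = 0.0228). Without Shh dermis Tg-9233 the number called was 6, with Ttk, Cdca8 and Cdc20 added, and in edgeR, without Shh dermis Tg-9231 or without Shh epidermis Tg-9101 it was 1, Espl1. It was 5 without Shh dermis Tg-9101 and 0 without Shh epidermis Tg-9231 or Tg-9233. The share of all genes called in these alternative fits is not given here, so the counts show only how the calls moved.

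Ttk had the largest difference of the 35 in Shh wounds, with 5.24, 2.25 and 0 CPM in Shh dermis, against 12.3, 6.74 and 9.63 CPM in Shh epidermis (log2 fold change -1.92 ± 0.69, limma adjusted p = 0.0694). Cdca8 had 5.08, 5.12 and 0 CPM in Shh dermis, against 10.7, 7.55 and 13.1 CPM in Shh epidermis (log2 fold change -1.75 ± 0.74, limma adjusted p = 0.112). Prc1 had 21.5, 26.0 and 0 CPM in Shh dermis, against 28.3, 20.7 and 23.4 CPM in Shh epidermis (log2 fold change -1.56 ± 1.14, limma adjusted p = 0.331). Shh dermis Tg-9233 had no read for any of these 3, and none of them passed the test. Nusap1, Aurkb and Tpx2 differed least. Nusap1 had 8.19, 7.62 and 10.5 CPM in Shh dermis, against 11.4, 6.43 and 8.37 CPM in Shh epidermis. Aurkb had 8.52, 12.2 and 8.93 CPM in Shh dermis, against 8.42, 10.9 and 11.3 CPM in Shh epidermis. Tpx2 had 21.1, 17.9 and 11 CPM in Shh dermis, against 18.2, 11.8 and 16.6 CPM in Shh epidermis. The tissues overlapped in these.

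In WT wounds 1 of the 35 passed the test, Espl1, with 10.4, 16.8 and 12.1 CPM in WT dermis, against 49.2, 31.7 and 24.4 CPM in WT epidermis (log2 fold change -1.32 ± 0.44, limma adjusted p = 0.047), beside 13.4% of 19354 genes lower and 10.5% higher. The median of the 35 was -0.10, as it was over all genes. Cdk1 had 13.2, 13.1 and 32.0 CPM in WT dermis, against 0, 6.39 and 3.75 CPM in WT epidermis (log2 fold change 2.52 ± 0.87, limma adjusted p = 0.056), the largest value of the 35 and short of the threshold. With TMM scaling, in edgeR and in DESeq2, Cdk1 was the 1 gene of the 35 called, as higher in dermis, and Espl1 was not. Over all 19354 genes TMM gave 2543 higher and 1937 lower. With the replicate number as a block neither was called. Of the fits that leave out 1 library, only that without WT epidermis Con-9229 kept Espl1, and that without WT epidermis Con-9098 called Cdk1. No gene of the 35 was called without the 3 WT libraries that had few detected genes, which leaves 2 dermal and 1 epidermal library. Nuf2 had 2.5, 2.93 and 0 CPM in WT dermis, against 16.1, 3.40 and 3.28 CPM in WT epidermis (log2 fold change -1.52 ± 0.93). Ttk had 3.22, 4.00 and 0 CPM in WT dermis, against 9.57, 16.3 and 1.41 CPM in WT epidermis (log2 fold change -1.46 ± 1.01). Prc1, Ccnb1 and Mki67 had the values nearest to 0. Prc1 had 19.7, 20.0 and 12.8 CPM in WT dermis, against 34.5, 17.9 and 9.84 CPM in WT epidermis. Mki67 had 122, 111 and 70.3 CPM in WT dermis, against 87.2, 145 and 96.0 CPM in WT epidermis. Ccnb1 had 1.07, 0.267 and 0 CPM in WT dermis, against 0, 1.36 and 0 CPM in WT epidermis.

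**Figure D5:**
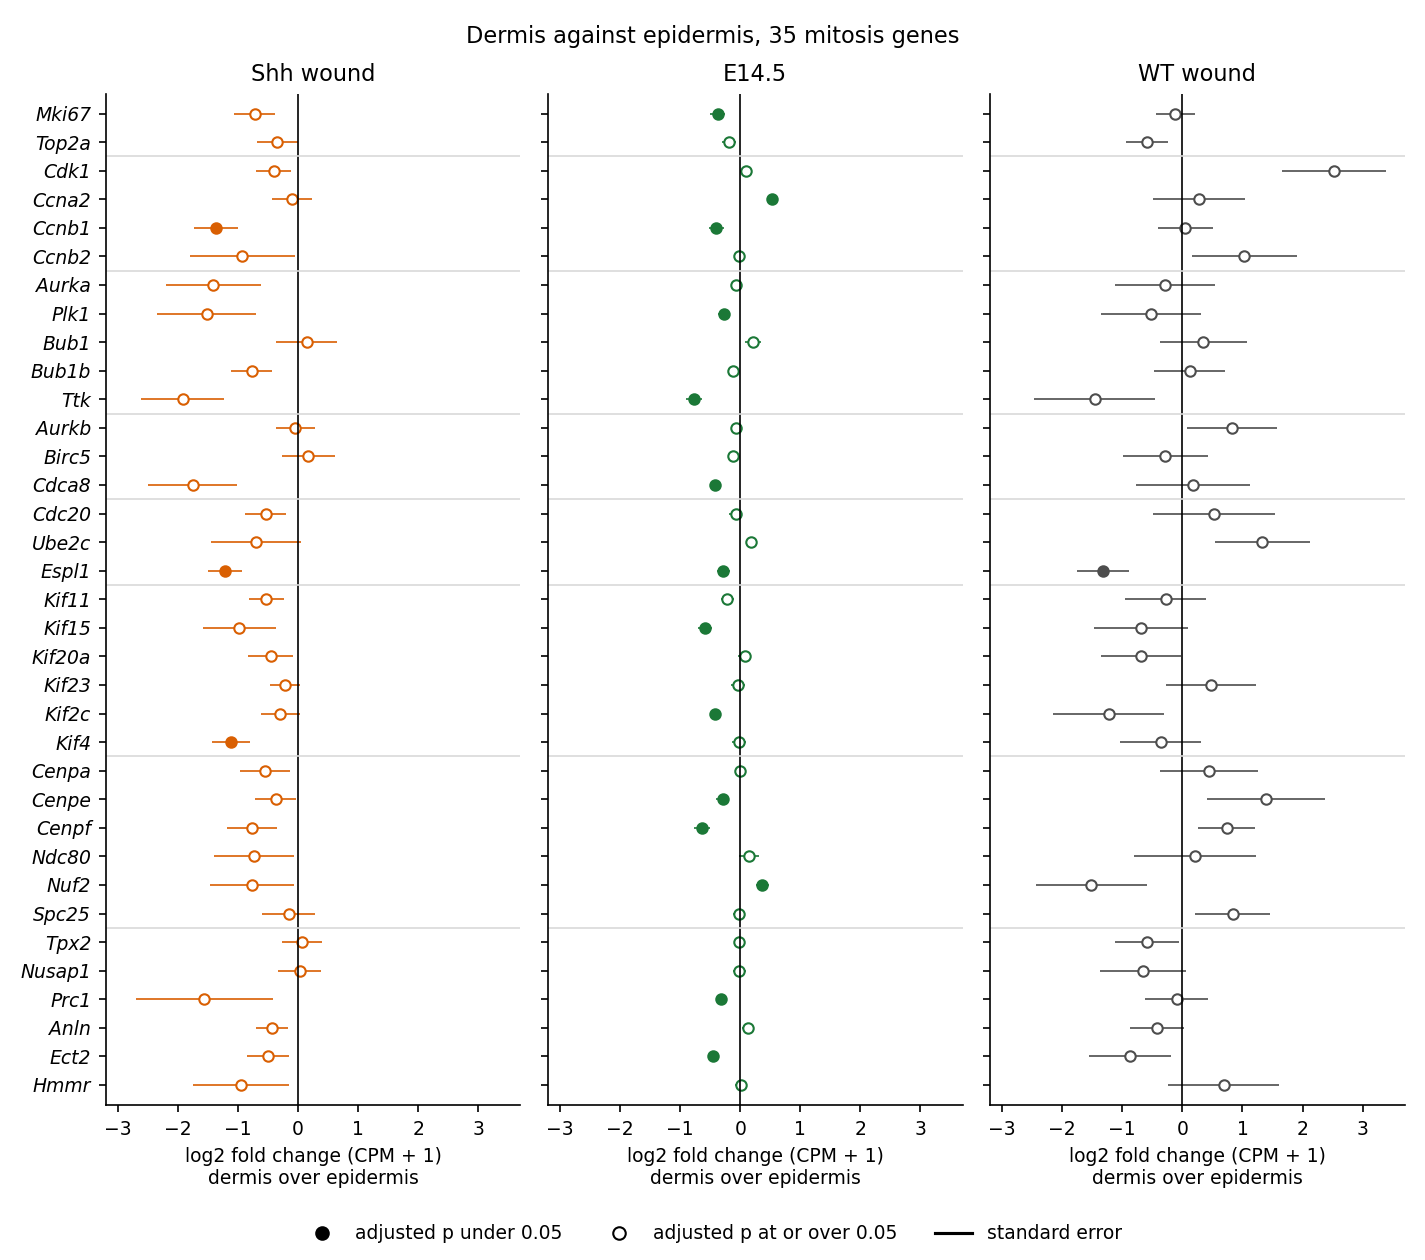
Log2 fold change of dermis against epidermis, on log2(CPM + 1), for each of the 35 genes in Shh wounds, E14.5 skin and WT wounds, with its standard error as a line and a filled symbol where the limma adjusted p is under 0.05. The E14.5 values stay between -0.77 and 0.53, while those of Shh wounds reach -1.92 and those of WT wounds run from -1.52 to 2.52.

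Whether E14.5 skin differed from WT wounds by the same amount in both tissues was tested as an interaction. Between the tissues 28 of the 35 log2 fold changes lay within 1 log2 unit of each other, and 17 were larger in dermis. The interaction passed the test in 3 genes, beside 12.7% of 19806 genes with a larger value in dermis and 8.46% with a smaller one. Cdk1 had log2 fold changes of 3.20 ± 0.30 in dermis and 5.61 ± 0.60 in epidermis (difference -2.41 ± 0.71, limma adjusted p = 0.0243). Cenpf had 2.61 ± 0.29 and 3.98 ± 0.27 (difference -1.38 ± 0.43, limma adjusted p = 0.0318). Espl1 went the other way, with 2.45 ± 0.22 in dermis and 1.41 ± 0.22 in epidermis (difference 1.04 ± 0.34, limma adjusted p = 0.0382). Dermis and epidermis of E14.5 skin differed by 0.10 ± 0.09 in Cdk1, -0.64 ± 0.13 in Cenpf and -0.28 ± 0.11 in Espl1, against 2.52 ± 0.87, 0.74 ± 0.48 and -1.32 ± 0.44 in WT wounds. With the replicate number as a block Cdk1 and Cenpf stayed called, Espl1 did not and Nuf2 was added. Espl1 did not pass with TMM scaling or in edgeR either. Leaving out 1 library at a time, Cdk1 stayed called except without WT dermis Con-9229. The number called was 1 without E14.5 dermis 3 or any 1 of the E14.5 epidermis libraries, and 5 without WT epidermis Con-9098 or Con-9229. For fits that left out libraries the share of all genes called is not given here. Without the 3 WT libraries that had few detected genes 5 genes passed, Cdk1 and Ube2c with a smaller and Espl1, Ttk and Anln with a larger value in dermis, and Cenpf did not. For Shh against WT wounds, the interaction passed in none of the 35 in limma, edgeR or DESeq2. In limma 0% of 19722 genes passed and in DESeq2 14 genes did. Cdk1, Ccnb1 and Cenpf had an unadjusted p under 0.05 in limma, all with a smaller value in dermis, beside 2.41% of all genes. In edgeR and in DESeq2, 2 of the 35 each had a smaller value in dermis at an unadjusted p under 0.05, beside 4.09% and 3.44% of all genes. The difference was above 0 for 9 of the 35, beside 42.7% of all genes, with a median of -0.75, which was -0.02 without the 4 libraries with few detected genes.

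The mix of mitosis genes also differed between embryo and wound. Mki67 made up 11 to 14% of the CPM summed over the 35 in E14.5 dermis, against 17.8 to 29.6% in WT dermis, and 13.2 to 14.8% in E14.5 epidermis, against 15.7 to 26.8% in WT epidermis. In dermis 17 of the 35 took a larger share in every E14.5 library than in every WT library and 5 a smaller one (Mki67, Espl1, Kif23, Cenpe and Prc1). In epidermis 12 took a larger share and 3 a smaller one (Mki67, Espl1 and Anln). Of those with a larger share, Ccnb1, Aurka, Bub1, Ttk, Nuf2 and Spc25 lacked reads in at least 1 WT dermis library. In WT epidermis the same held for Cdk1, Ccnb1, Aurka, Bub1, Cdca8, Ube2c, Spc25 and Hmmr. Between Shh and WT wounds no share separated the groups in dermis. In epidermis 6 shares were larger in every Shh library (Cdk1, Ccna2, Aurka, Ube2c, Cenpa and Spc25) and 2 smaller (Nuf2 and Tpx2). Shares of a sum depend on each other, and they were not tested. The part of read depth in these shares was not tested either.

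Per kilobase of exon in the GENCODE M21 annotation, Ccna2 was the highest of the 35 in E14.5 dermis at 62.6 CPM per kb, ahead of Top2a (51.3) and Mki67 (48.6). In E14.5 epidermis Mki67 led with 62.4 CPM per kb, ahead of Top2a (58.1) and Cdc20 (47.0). Ndc80, the subunit that binds microtubules, was the lowest of the 35 in both embryonic tissues, with 4.52 CPM per kb in dermis and 3.99 in epidermis. In WT dermis Mki67 led with 10.04 CPM per kb and Ccnb1 was lowest with 0.11. The lengths merge the exons of all annotated transcripts of a gene, and the reads were counted on another build. The order of genes per kilobase depends on these lengths. Exons of 9 of the 35 overlap a gene on the opposite strand in that annotation, namely Ccna2 with Exosc9, Plk1 with Gm44985, Cdca8 with 9930104L06Rik, Cdc20 with Elovl1, Ube2c with Tnnc2, Kif20a with Cdc23, Kif4 with Pdzd11, Nusap1 with Oip5 and Prc1 with Rccd1. Top2a holds the small nucleolar RNA gene Gm23451 on its own strand. The libraries were stranded, but the sources used here do not give the strand setting of the counting, so reads of these pairs may not be told apart.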

How the data were processed

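RNA of dermis and epidermis was sequenced from Shh wounds, E14.5 skin and WT wounds as stranded, rRNA-depleted total RNA with paired ends of 50 bases. The submitters' processing notes name Bowtie, SAMtools, HTSeq and the build NCBIM37, with versions not given in the sources used here. The deposited values are CPM, scaled by the authors to sum to 1000000 in each library, and the deposited fold changes and p-values were not used. Read numbers were recovered from the CPM steps, with 100% of values whole within 0.01 reads. A further 1 column belonged to no sample and was not used.

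Stage and genotype came from the sample sheet fixed at the outset. That sheet named all 20 libraries dermis, which was wrong for 10, so tissue was taken from the GEO source names instead.

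Groups were compared with limma 3.58.1 (R 4.3.3) on log2(CPM + 1) with a trend, over all genes with at least 1 read, using the libraries of the groups compared and Benjamini-Hochberg adjustment at 0.05. Errors beside a log2 fold change are standard errors. Alternatives were a pseudocount of 0.5, a mean of at least 1 CPM, no trend, TMM scaling, count tests on recovered reads (edgeR 4.0.16, DESeq2 1.42.0), a shared fit over the 3 groups of a tissue, the library number series as a term, a replicate block, and leaving out each library. The fit was tested on simulated data, in which all libraries shared 1 spread and the same gene levels apart from the changes put in. Libraries with few detected genes were not modelled, so that test does not cover them. Replicate numbers occur in both tissues and were read as the same animal, and the deviations of same-numbered libraries correlated at -0.007 to 0.37. For dermal libraries E14.5 4, Tg-9231, Tg-9233 and Con-9097, an epidermal library of another number in the same group correlated more. For these the values did not bear out the pairing. Members and lists were chosen with earlier results of these data known. All 35 members are named, and values in every library are given for 11 of them and for the 3 largest and 3 smallest log2 fold changes of each comparison. Others with values in every library were chosen after their values were seen. PCR reads are not independent molecules.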

Additional observations from a re-analysis of the deposited data

Results flagged for a closer look

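In 4 of 72 groups of 4 embryonic libraries, 1 library stood far from the others by Dixon's ratio, which chance gives in about 1 of 20 groups. Kif4, a chromokinesin, had 59.6 CPM in E14.5 dermis 7 and 79.8 to 83.7 CPM in the other 3. Cdc20 had 96.7 CPM in E14.5 epidermis 3 and 84.2 to 85.1 CPM in the others. Ube2c had 66.0 CPM in E14.5 epidermis 5 and 74.9 to 76.7 CPM in the others. Ndc80 had 31 CPM in E14.5 epidermis 4 and 24.0 to 24.6 CPM in the others. All of these libraries still stood above every wound library for the gene.

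In 3 of the 35 genes the log2 fold change of E14.5 skin over WT wounds differed between dermis and epidermis in the limma interaction test, beside 12.7% of all genes with a larger and 8.46% with a smaller value in dermis. Dermis minus epidermis was -2.41 for Cdk1, 1.04 for Espl1 and -1.38 for Cenpf. Espl1 was not called with TMM scaling, in edgeR, with the replicate block or in most fits that left out 1 library. Cdk1 had no read in WT epidermis Con-9097 and was not called without WT dermis Con-9229. Cenpf was not called without the WT libraries that had few detected genes, nor in most fits that left out 1 library.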

How the results depend on the processing

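E14.5 skin against WT wounds gave 35 genes higher in both tissues under each alternative, and Shh wounds against E14.5 skin 35 lower, except 34 in dermis with edgeR and DESeq2. Shh against WT wounds gave 0 under each. Other scalings brought the medians nearer to 0: E14.5 over WT wounds was 2.76 (TMM), 2.83 (edgeR) and 2.83 (DESeq2) in dermis and 2.96, 2.79 and 2.79 in epidermis, and Shh wounds over E14.5 skin was -2.76, -2.70 and -2.78 in dermis and -2.24, -2.34 and -2.27 in epidermis.

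Between E14.5 tissues leaving out 1 library gave 9 to 15 genes. In Shh wounds 3 became 1 with edgeR, 0 to 6 leaving out 1 library and 6 without Shh dermis Tg-9233. In WT wounds, where Espl1 was the 1 call, the number was 0 with a pseudocount of 0.5, with no trend, with the replicate block and without the libraries with few detected genes, and 2 with a mean of at least 1 CPM. With TMM, edgeR or DESeq2 the 1 call was Cdk1, in the other direction, and leaving out 1 library gave 0 to 1, that call being Cdk1 without WT epidermis Con-9098. The tissue by stage interaction gave 7 genes with DESeq2, 5 (3 larger and 2 smaller in dermis) without the few-gene libraries, chosen after seeing the data, and 1 to 5 leaving out 1 library, with 4 larger and 1 smaller without WT epidermis Con-9229. The cause was not tested. The replicate block moved no other number of calls.

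Of single-gene results under the alternatives, 5952 kept their side of the threshold, 37 gained a call and 80 lost it, and 0 reversed. Over all genes, Shh against WT epidermis gave 0 calls in limma, 6 in edgeR, 64 in DESeq2 and 148 with E14.5 skin in the fit. Wound libraries of 1407498 to 10810590 reads limit the genes at a few CPM.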
